A study of Mus musculus with 102 samples.

Results

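Etnppl, Dio2, Aldh1l1, Glul, Slc1a2, Slc1a3, Aqp4 and Gja1 are 8 genes of astrocyte metabolism and transport, and they were followed across 6 ages of mouse brain. They were picked by symbol from the 51810 gene rows of the deposited brain table, with the results at 20 against 3 months in view, where Etnppl was among the genes that were higher and Dio2 among those that were lower. All 8 passed the filter on low values, which left 15546 genes in the brain. The brains came from male wild-type (WT) mice, named BL6J in the sample titles, whose ages were 3, 5, 8, 14, 20 and 26 months, with 7, 9, 8, 9, 7 and 5 libraries in that order. Spleens of the same 45 mice, by the numbers in the titles, form another table. The last table holds spleens of 3 WT and 3 mTOR males at 5 months (young) and 3 of each at 21 or 23 months (old), also titled BL6J. The labels name the mTOR genotype without describing the allele. They do not say which part of the brain was taken.

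Astrocytes clear transmitter from the synapse, buffer water and ions, and supply neurons with metabolites. Slc1a2 (GLT-1) and Slc1a3 (GLAST) take up synaptic glutamate, and glutamine synthetase, the product of Glul, converts it to glutamine that returns to neurons. Aqp4 is the water channel of the endfeet on blood vessels, and Gja1 encodes connexin 43, the main gap junction protein of astrocytes. Etnppl encodes a lyase that breaks down phosphoethanolamine, a building block of membrane lipids. Dio2 encodes the deiodinase that turns the thyroid prohormone T4 into active T3, and Aldh1l1 encodes a cytosolic enzyme of folate metabolism that is widely used as an astrocyte marker.

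Values below are normalized read counts (reads per gene divided by a size factor for each library). Reads in genes ran from 4072076 to 13655235 in the brain libraries, 3031246 to 11702988 in the ageing spleens and 7733716 to 14112504 in the mTOR table. At 5 months the brain libraries of replicates 1 and 6, and at 8 months those of replicates 4 and 7, had counts closer to each other than read sampling alone would give. Their means stand for 1 sample each, so that 43 brain samples remained, with 8 at 5 months and 7 at 8 months. Of 24 other astrocyte genes used as markers, 22 had reads in the brain. Gfap and Lcat were listed at 0 in all 43 samples. Nefl, a neuronal filament gene, and P2ry12, a microglial receptor gene, were listed at 0 as well, so a 0 was not read as absence from the tissue. In whole tissue, fewer cells of a type and less RNA per cell cannot be told apart.

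Divided by the length of all annotated exons of the gene, with overlaps counted once, the 8 genes spanned a wide range of levels. Glul was highest at 4600 ± 650 normalized counts per kb (SD, n = 43), then Slc1a2 at 1584 ± 162 and Slc1a3 at 456 ± 38.4. Gja1 stood at 182 ± 19.7, Aqp4 at 147 ± 21.5 and Dio2 at 95.3 ± 12.5 per kb. Aldh1l1 at 56.5 ± 8.53 and Etnppl at 51.3 ± 14.3 per kb were lowest. The first 3 steps of this order held in 43 of 43 samples. Gja1 exceeded Aqp4 in 39 samples, Aqp4 exceeded Dio2 in 41, Dio2 exceeded Aldh1l1 in 42 and Aldh1l1 exceeded Etnppl in 34, so these neighbours overlapped. The order rests on the exon length used. In undivided counts the mean of Slc1a2 (20808) stood above that of Glul (15285), and that of Etnppl (424) above that of Aldh1l1 (255).

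Across the ages, Etnppl was the member with the widest spread between age means, with a ratio of 1.78 between the highest mean (20 months) and the lowest (3 months). Dio2 followed at 1.29, with its highest mean at 3 and its lowest at 20 months. These are the ages of the contrast by which both genes were chosen, so their lead in this order describes the choice. The ratio was 1.23 for Aqp4, 1.16 for Aldh1l1, 1.13 for Gja1, 1.07 for Slc1a3, 1.06 for Slc1a2 and 1.05 for Glul. In the plot of the members by age, the last 3 genes form nearly level rows of points.

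**Figure D1:**
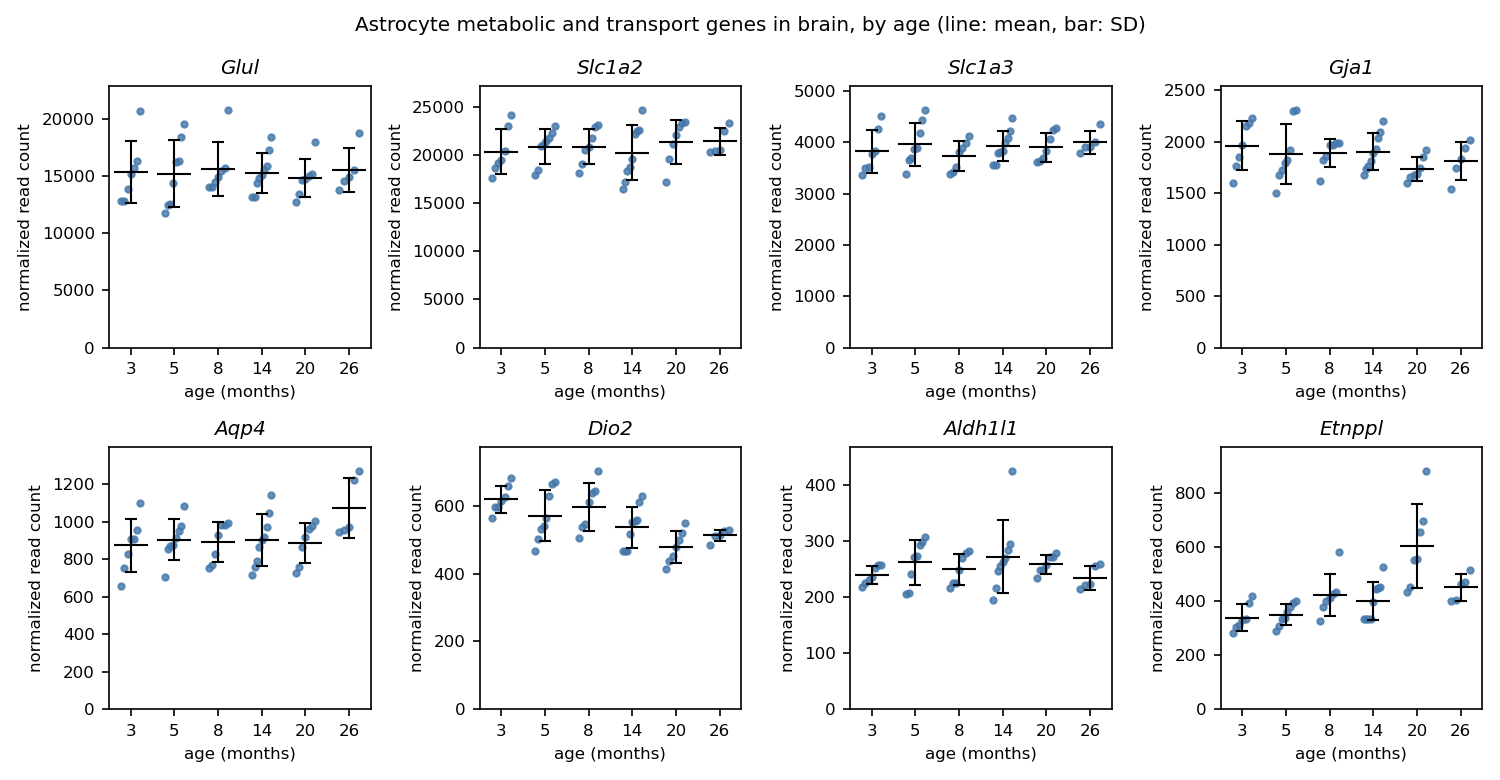
Normalized read counts (vertical axes, starting at 0) of the 8 members in 43 brain samples against age in months, with 1 point per sample, the mean as a horizontal line and the SD as a bar. All 7 Etnppl values at 20 months, 433 to 881, lie above all 7 at 3 months, 283 to 419, and all 7 Dio2 values at 20 months, 415 to 548, lie below all 7 at 3 months, 566 to 683. Both genes were chosen by this contrast.

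Etnppl lies on chromosome 3 (GRCm38, 130617448 to 130637521, plus strand). At 3 months its lowest, median and highest values were 283, 331 and 419, at 5 months 291, 349 and 399, and at 8 months 326, 411 and 581. At 14 months they were 332, 396 and 528, and at 20 months 433, 556 and 881. The 5 samples at 26 months stood at 399, 403, 464, 472 and 517. Every 20-month value thus lay above every value at 3 and at 5 months, while the 8-month, 14-month and 26-month samples overlapped with the 20-month ones. The 20-month animals entered the choice of Etnppl, and how many of all genes separate in this way was not counted. At 20 against 3 months, the contrast by which Etnppl was chosen, the difference was 0.80 on the log2 scale (SE 0.12). It was 0.57 (SE 0.12) at 20 against 14 months, and -0.39 (SE 0.14) at 26 against 20 months, values that share the 20-month animals with the choice. Etnppl also spread most within an age, with a pooled SD of 0.24 on the log2 scale, against 0.12 for Slc1a3.

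Dio2 lies on chromosome 12 (90724552 to 90738438, minus strand). Its lowest, median and highest values were 566, 615 and 683 at 3 months, 466, 553 and 671 at 5 months and 504, 611 and 702 at 8 months. They were 468, 553 and 630 at 14 months and 415, 480 and 548 at 20 months. The 5 samples at 26 months lay close together, at 484, 511, 515, 526 and 528. All values at 20 and at 26 months were below all 7 at 3 months, and the ages between overlapped with both ends. The 3-month and 20-month animals entered the choice of Dio2, and how many of all genes separate in this way was not counted. The log2 difference was -0.38 (SE 0.08) at 20 against 3 months and -0.27 (SE 0.09) at 26 against 3 months, which share the 3-month animals. The call at 20 against 3 months was lost when any of 7 of the 14 samples was left out (3-month replicates 2, 3 and 7, and 20-month replicates 1, 2, 4 and 7), with differences from -0.41 to -0.34 over the 14.

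Since these were the 2 members called at 20 against 3 months, and in opposite directions, the 250 bases before their RefSeq starts (GRCm38.p6) are shown, 5′ to 3′ on the strand of the gene. Windows were found for 7 of the 8 members, and none for Aqp4. Capitals mark TGACGTCA, the cyclic AMP response element, and TATAAA.
Dio2, chr12:90739039-90739288, minus strand: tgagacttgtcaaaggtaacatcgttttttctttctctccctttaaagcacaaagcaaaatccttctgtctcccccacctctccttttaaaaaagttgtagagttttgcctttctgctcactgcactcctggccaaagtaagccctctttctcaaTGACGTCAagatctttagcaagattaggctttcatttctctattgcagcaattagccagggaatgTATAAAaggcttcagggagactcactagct
Etnppl, chr3:130617198-130617447, plus strand: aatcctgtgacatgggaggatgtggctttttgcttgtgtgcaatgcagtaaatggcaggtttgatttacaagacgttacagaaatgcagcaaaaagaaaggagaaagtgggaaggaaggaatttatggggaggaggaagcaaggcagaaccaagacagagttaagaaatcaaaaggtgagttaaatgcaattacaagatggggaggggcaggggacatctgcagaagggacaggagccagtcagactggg
The RefSeq start of Dio2 lies 600 bases upstream of the gene boundary in GENCODE M21, while that of Etnppl falls on it. RefSeq gives another Etnppl start 127 bases downstream. The RefSeq starts of Slc1a2 and Aldh1l1 lie 47779 and 64366 bases inside the GENCODE genes, so their windows are not the sequence before the outermost start. Among the 7 members with a window, TGACGTCA was found only before Dio2, with its first base 95 bases before the start. It was present in 508 of 32851 such windows of all genes (1.55%) on either strand. TATAAA began 30 bases before the Dio2 start, and its reverse complement lay 161 bases before that of Slc1a3. It was present in 12.4% of all windows. Neither Etnppl window held either motif, nor TGACG (17.8% of all windows, and part of TGACGTCA), CACGTG (6.02%), TTCNNNGAA (7.02%) or AACAAT (9.42%), nor the nuclear factor I palindrome (0.0365%). All motifs were searched on both strands. These are matches of letters in a fixed window, and binding was not measured.

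Whether the members move with age in other animals was asked in the 29 samples of 5, 8, 14 and 26 months, none of which entered the 20 against 3 month contrast. Over these ages 0 of 8 members were called by limma with Benjamini-Hochberg adjustment over 15263 genes, where 0.4% of all genes were called (0.38% higher and 0.0197% lower). The edgeR and DESeq2 tests called 0 of 8 as well, and 3 of 8 had an unadjusted p under 0.05 by limma, against 1060 genes of all. Etnppl had a slope of 0.14 log2 per 10 months (SE 0.055, limma adjusted p = 0.543), which amounts to 1.22-fold between 5 and 26 months (95% interval 1.04 to 1.44). Aqp4 had a slope of 0.11 (SE 0.048, limma adjusted p = 0.587), or 1.18-fold (1.02 to 1.36). Dio2 had a slope of -0.09 (SE 0.042, limma adjusted p = 0.686), or 0.879-fold (0.776 to 0.995). The intervals are not adjusted for the number of genes. The other 5 slopes lay between -0.05 and 0.02, each smaller than its SE. The median slope of the 8 was 0.01, beside -0.003 for all genes tested.

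**Figure D2:**
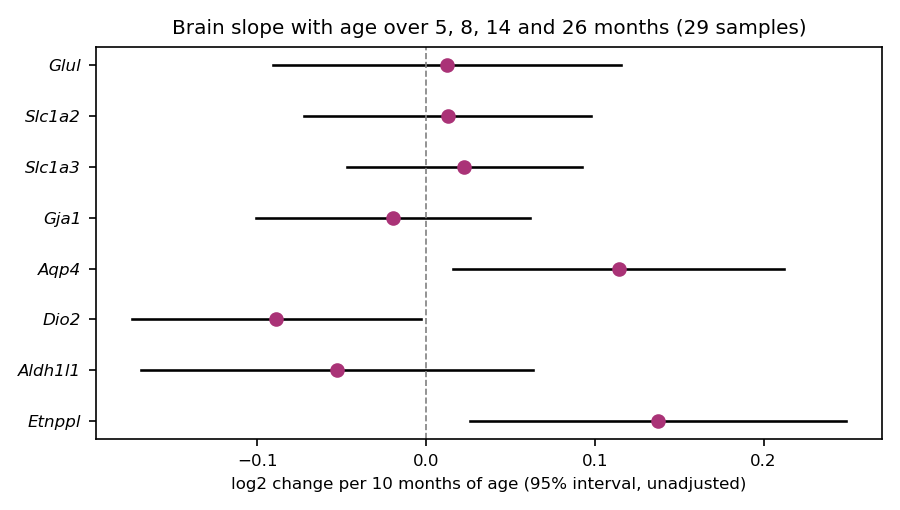
Slope of the 8 members with age in 29 brain samples of 5, 8, 14 and 26 months, in log2 units per 10 months (horizontal axis), with points for the estimates and lines for unadjusted 95% intervals. The intervals of Etnppl, Aqp4 and Dio2 lie to 1 side of 0, and the other 5 include it.

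The same animals were divided into a midlife and a late step. At 14 against 5 and 8 months 0 of 8 members and 0.0% of all genes were called by limma, with 0 of 8 members and 500 of all genes at an unadjusted p under 0.05. Neither edgeR nor DESeq2 called any gene there. At 26 against 14 months 0 of 8 were called by limma, edgeR or DESeq2, where limma called 0.164% of all genes, and 1 member, Aqp4, was among the 960 of all genes with an unadjusted p under 0.05. The differences of the members ran from -0.19 (Aldh1l1, SE 0.13) to 0.25 (Aqp4, SE 0.11, limma adjusted p = 0.732). The midlife step of Etnppl was 0.05 (SE 0.09) and its late step 0.18 (SE 0.12, limma adjusted p = 0.844).

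Other contrasts share the 3-month or 20-month animals with the choice of members, so their counts describe the choice and nothing is read from them. At 20 against 3 months 2 of 8 members and 0.174% of all genes (0.161% higher, 0.0129% lower) were called by limma, which is the contrast that chose them. It called 0 of 8 at 26 against 3 months (0.663% of all genes, 0.572% higher and 0.0901% lower, with 3 members and 1570 of all genes at an unadjusted p under 0.05) and 0 of 8 at 20 against 14 months (0.00643% of all genes, with 2 members and 647 genes at that unadjusted level). At 26 against 20 months (2 members) and at 5 against 3 months (0 members) it called 0 of 8 members and 0.0% of all genes, with 604 and 495 genes of all at an unadjusted p under 0.05. Where limma called 0 of 8, edgeR and DESeq2 also called 0, except for Etnppl at 20 against 14 months, which rests on the 20-month animals that chose it.

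Among the enzymes, Glul (chromosome 1, 153899944 to 153909723, plus strand) and Aldh1l1 (chromosome 6, 90486427 to 90600203, plus strand) showed overlapping values at all ages. Glul, the enzyme that makes glutamine, had age means between 14823 at 20 months and 15624 at 8 months. Its samples ran from 11754 to 20787, so animals of 1 age differed more than the ages did. Aldh1l1 had age means between 235 at 26 months and 272 at 14 months. Its highest value, 425 in replicate 6 at 14 months, stood apart from the other 8 samples of that age, which ran from 194 to 295.

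The age means of the glutamate transporters lay close together. Slc1a2 (chromosome 2, 102658659 to 102790784, plus strand) had age means from 20252 at 14 months to 21435 at 26 months. Slc1a3 (chromosome 15, 8634124 to 8710764, minus strand) had age means from 3732 at 8 months to 3994 at 26 months. For Slc1a3 the 95% interval of the change from 14 to 26 months was -0.13 to 0.18 on the log2 scale, and for Slc1a2 -0.10 to 0.28. A p above the threshold does not show that levels are equal, and these intervals bound the change.

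Aqp4, on chromosome 18, had its highest age mean at 26 months. Its lowest, median and highest values were 659, 908 and 1102 at 3 months, 705, 895 and 1087 at 5 months and 753, 928 and 995 at 8 months. They were 714, 903 and 1143 at 14 months and 727, 917 and 1003 at 20 months. The 5 samples at 26 months stood at 946, 957, 972, 1221 and 1270. Of these, 2 lay above every sample of the other ages and 3 lay within them. Gja1 (chromosome 10, 56377330 to 56402513, plus strand), the gap junction gene, had age means from 1736 at 20 months to 1965 at 3 months, and its ranges overlapped at all ages.

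Around each member, the other genes of its pathway were looked up. In the trend over 5, 8, 14 and 26 months, limma called 0 of 19 genes of phospholipid head groups, 0 of 10 of thyroid hormone handling, 0 of 20 of the glutamate and glutamine cycle, 0 of 12 of endfoot water and potassium, 0 of 9 of gap junctions and 0 of 21 of folate metabolism. The median slopes of these 6 lists lay between -0.01 and 0.03, beside -0.003 for all genes. The ethanolamine kinase Etnk1, which makes phosphoethanolamine, had a slope of 0.13 (SE 0.06, limma adjusted p = 0.696). Slc16a10, a carrier of thyroid hormone and aromatic amino acids, had 0.20 (SE 0.07, limma adjusted p = 0.402). The largest slopes among the genes of smallest p in these lists were those of Trpv4, an osmosensitive channel, at 0.38 (SE 0.14), of Aldh1l2 at 0.27 (SE 0.10) and of Gjb1, connexin 32, at 0.21 (SE 0.07), with limma adjusted p from 0.391 to 0.420.

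In the pathway lists, Aldh1l2 was called at 26 against 14 months. This mitochondrial counterpart of Aldh1l1 rose by 0.83 on the log2 scale (SE 0.18, limma adjusted p = 0.0461), and its means were 31.2 ± 7.91 (SD, n = 9) at 14 and 55.6 ± 10.4 (n = 5) at 26 months. It was the 1 gene called of the 21 in the folate list, and Aldh1l1 itself stood at -0.19 (SE 0.13). The call was lost in 11 of 14 fits that left out 1 sample (all except 14-month replicates 6 and 7 and 26-month replicate 2), with differences from 0.75 to 0.93 and limma adjusted p from 0.0224 to 0.319. It was also lost without libraries under 5000000 reads (0.68, limma adjusted p = 0.370), with no filter (limma adjusted p = 0.0841) and with the 2 groups fitted alone (limma adjusted p = 0.129). Aldh1l2 was called at 26 against 3 months as well (0.91, SE 0.21, limma adjusted p = 0.0153). That contrast shares the 26-month animals, and its dependence on settings was not examined for Aldh1l2. Other values named in these lists were those of Ptdss1 (-0.08, SE 0.04), Nrgn (-0.14, SE 0.07), Slc17a6 (-0.08, SE 0.07), Gad2 (-0.04, SE 0.04), Hepacam (0.09, SE 0.04), Panx1 (-0.13, SE 0.06) and Slc19a1 (-0.15, SE 0.06), all as log2 slopes per 10 months and none called.

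Astrocyte genes in general gave a similar picture, and reactive ones did not. Limma called 0 of 22 astrocyte identity genes in the trend, with a median slope of 0.04, among them the calcium binding protein S100b (0.19, SE 0.10) and the glutamate receptor subunit Grin2c (0.10, SE 0.06). Of 10 reactive astrocyte genes tested, 3 rose in the same animals, the complement gene C4b (1.20 per 10 months, SE 0.11, limma adjusted p = 4.03e-09), the protease inhibitor gene Serpina3n (0.87, SE 0.11, limma adjusted p = 1.00e-05) and the filament gene Vim (0.38, SE 0.06, limma adjusted p = 0.000613). That list was drawn up with earlier results of these samples known, and it is no independent evidence of its direction. Markers of other cells were read in the same trend. Of 8 microglia genes tested, the complement genes C1qa (0.37, SE 0.09, limma adjusted p = 0.0488) and C1qb (0.42, SE 0.07, limma adjusted p = 0.000364) rose, and 8 of 8 had a slope above 0 (median 0.10). Of 10 oligodendrocyte genes 0 were called and 10 had a slope above 0 (median 0.12). Of 9 neuron genes (median -0.05) and 9 striatum genes (median -0.18) tested, 0 were called and 0 had a slope above 0. The same held for 6 choroid plexus genes (median -0.08) and 5 oligodendrocyte precursor genes (median -0.05). The part of these cells in the reactive astrocyte values was not tested.

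Markers of astrocytes and other cells were summed at both ages of the contrast that chose the members. The summed astrocyte identity level ranged from 16697 to 21864 (median 19448) at 3 months and from 18427 to 21154 (median 20684) at 20 months. That list includes Apoe and Clu, and in the 3-month spleens it summed to between 7012 and 24029. The sum is thus not specific to astrocytes. The summed level of 10 endothelial and pericyte genes ranged from 1928 to 2315 at 3 months and from 2161 to 2689 at 20 months. That of 7 choroid plexus genes ranged from 1353 to 2782 and from 1347 to 8281, and that of 10 neuron genes, Nefl among them at 0, from 69272 to 87565 and from 65454 to 71600. Limma called 0 of 22, 0 of 10, 0 of 6 and 0 of 9 tested genes of these lists at 20 against 3 months, with medians of 0.07, 0.16, 0.63 and -0.11 on the log2 scale, beside 0.0005 for all genes. It also called 0 of 8 hypothalamus and pituitary genes, of which 7 were higher (median 0.47), and 0 of 9 striatum genes, of which 1 was higher (median -0.13). The summed hypothalamus and pituitary level ranged from 120 to 285 at 3 months and from 128 to 2151 at 20 months. The part of these shifts in the Etnppl and Dio2 values was not tested.

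From sample to sample the members correlated with mixed sign. Over 43 brain samples, with each value taken as its deviation from the mean of its age, the 28 pairs of members had a median Pearson r of 0.03, and 17 of the 28 were positive. With Spearman correlation the median was 0.03 with 15 positive pairs, and with another scaling (TMM) it was -0.006 with 13 positive pairs, so the sign of the median depends on the scaling. The highest values were 0.46 for Slc1a3 with Glul, 0.41 for Slc1a3 with Gja1 and 0.38 for Dio2 with Slc1a2. The lowest were -0.44 for both Aqp4 and Aldh1l1 with Glul, and -0.37 for Slc1a2 with Aldh1l1. Etnppl and Dio2 had 0.08. These are descriptions, since the points share library depth and composition. The members' correlation with log2 depth within age ran from -0.40 (Etnppl) to 0.41 (Slc1a2).

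**Figure D3:**
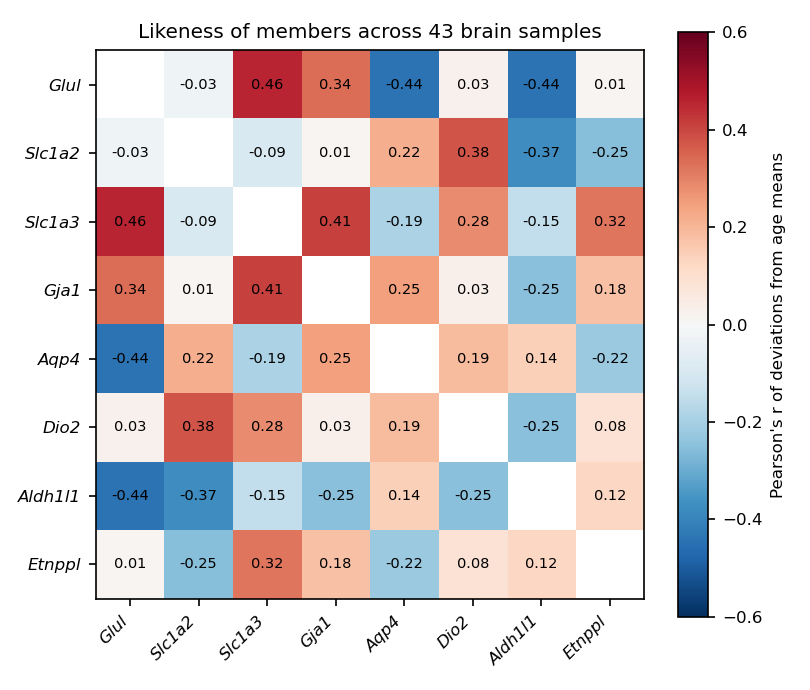
Pearson's r (colour scale and printed values) between the members over 43 brain samples, computed on deviations of log2 values from the age means. The highest pair is Slc1a3 with Glul at 0.46, and Glul is at -0.44 with both Aqp4 and Aldh1l1.

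For each member the 3 genes with the most similar within-age pattern were found, and of these Hepacam alone stood on a pathway list. For Etnppl they were the transcription factor gene Klf4 (r = 0.64), Fam107a (0.60) and Mapk8ip2 (0.58), and for Dio2 Thnsl1 (0.60), Socs7 (0.59) and Atg101 (0.59). For Aqp4 they were Ndst1 (0.73), the autophagy kinase Ulk1 (0.72) and Hepacam (0.70), which encodes an adhesion protein of astrocyte endfeet. Slc1a2 was nearest to Zmat3 (0.85), Rgs17 (0.84) and Tbl1xr1 (0.82), and Slc1a3 to Hdgf (0.73), Mageh1 (0.72) and Fam32a (0.72). Gja1 was nearest to Lin7c (0.83), Abhd17c (0.78) and Mob4 (0.78), and Aldh1l1 to Col11a2 (0.76), Bscl2 (0.74) and Ap3d1 (0.73). Glul was nearest to Stmn3 (0.95), the actin regulator Cfl1 (0.94) and Cmpk1 (0.92). Each r is over 43 samples. The search covered genes with a mean of at least 50 other than the 8 members, which were 10758 before predicted genes and pseudogenes were left out.

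The genes that varied with Glul and with Slc1a2 differed in length. The 100 genes most like Glul had a median exon length of 3632.5 bases, and the 100 most opposite to it 9592. For Slc1a2 the order was reversed, with 10736 bases for the most alike and 2868.5 for the most opposite. The median over all genes with a length was 5028 bases. Glul itself has 3323 exon bases and Slc1a2 13133. For Slc1a3 the 2 medians were 3624 and 7348.5, while for Aqp4 they were 5704.5 and 5604.5. Length thus moves with the sample-to-sample spread of Glul and Slc1a2, and its part in the likeness of the members was not tested. Within age, Glul had an r of 0.81 with the mean of 4 cerebellum genes, where the other members ran from -0.26 (Aqp4) to 0.36 (Slc1a3). These 4 are the genes with a mean of at least 50 among 9 listed, of which Cbln1, Neurod1 and Pcp2 were at 0. Glul also had high r with many single genes, with a 99th percentile of 0.845. That of the other members ran from 0.425 (Dio2) to 0.669 (Slc1a2), so the cerebellum value is not particular to that list. Slc1a2 had -0.64 with the mean of 20 astrocyte identity genes, where the others ran from -0.31 (Glul) to 0.48 (Aldh1l1). The part of brain region or cell mix in these values was not tested.

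**Figure D4:**
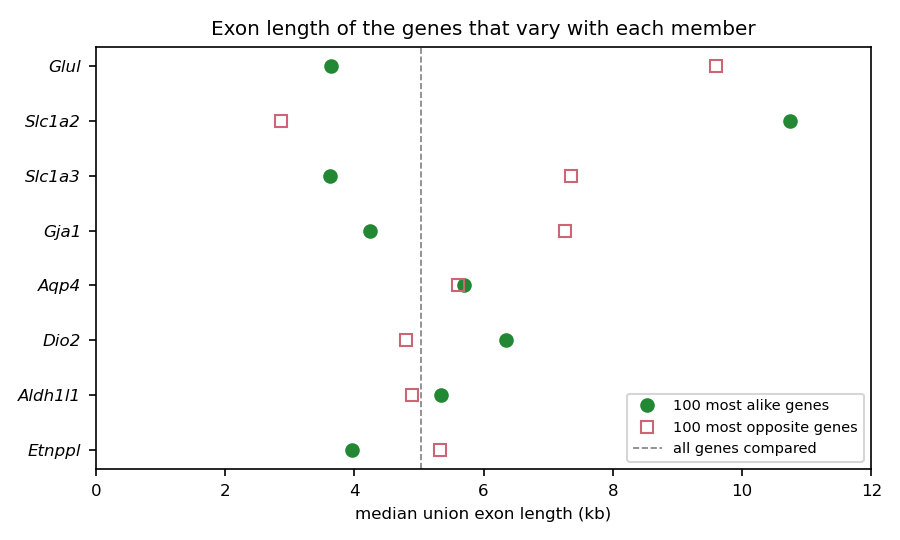
Median exon length (kb, horizontal axis) of the 100 genes most alike (filled circles) and most opposite (open squares) to each member within age, over 43 brain samples, with all genes compared as a dashed line. For Slc1a2 the alike genes are long (10736 bases) and the opposite ones short (2868.5), and for Glul the reverse holds.

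In the spleen, an organ without astrocytes, the members were read at very different depths. Glul, Slc1a3 and Gja1 had means of 1610 ± 514, 797 ± 507 and 443 ± 144 (SD, n = 45), while Etnppl never passed the filter on low values and was not tested. At 20 against 3 months limma called 2 of the 7 members tested, Dio2 and Slc1a3, both higher, where 10.7% of all 16243 genes were called (5.99% higher and 4.68% lower). Dio2 passed the filter on low values mainly through the 20-month spleens, so its call is no support for a difference. At 26 against 3 months limma, edgeR and DESeq2 each called 0 of 7 (0.369% of all genes by limma, 0.203% higher and 0.166% lower), and 2 were among the 2639 of all genes with an unadjusted p under 0.05 by limma. The 2 tissues come from tables that the authors scaled separately, so no level is compared between them.

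Slc1a3 in the ageing spleens had a lowest, median and highest value of 288, 392 and 707 at 3 months. Its medians were 722, 653 and 864 at 5, 8 and 14 months, so the 3-month median was the lowest of these ages. The 20-month median, 830, lay below that of 14 months. At 20 months the values were 466, 530, 624, 830, 1525, 1645 and 3202, and at 26 months 370, 414, 473, 654 and 1652. The highest 20-month values lay far above all 3-month ones and the lowest overlapped with them. The difference at 20 against 3 months was 1.22 on the log2 scale (SE 0.34, limma adjusted p = 0.0167). In the WT spleens of the mTOR table the mean was 565 in young and 529 in old mice. Replicate 2 at 20 months holds the value of 3202 and is the shallowest library, with 3031246 reads. Without it the difference was 0.94 (limma adjusted p = 0.0609), and without all libraries under 5000000 reads it was 0.72 (limma adjusted p = 0.167). Fitted on the 2 groups alone it was 1.22 (limma adjusted p = 0.0531). That library's 5 erythrocyte genes summed to 38302, where the 7 spleens of 20 months ran from 1669 to 38302 (median 6274) and those of 3 months from 2559 to 16879, with Alas2 listed at 0 in all. Over 45 spleens the within-age r of Slc1a3 with that sum was 0.09, and it was 0.59 with the summed neuron genes and 0.59 with the oligodendrocyte genes. Other lists stood at 0.54 (hypothalamus and pituitary), 0.51 (cerebellum), -0.44 (astrocyte identity) and -0.52 (gap junctions). In the 12 spleens of the mTOR table the within-group r was 0.62 with neuron, -0.58 with oligodendrocyte and 0.90 with microglia genes. The part of these lists in the Slc1a3 values was not tested.

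Dio2 in spleen rested on few reads, 0 to 5 per library at 3 months and 2 to 21 at 20 months. Its lowest, median and highest values were 0, 1.58 and 3.74 at 3 months and 1.54, 10.4 and 15.7 at 20 months, so the groups overlapped. It reached 10 in 5 of the 45 spleens, the fewest that the filter allows, of which 4 were of 20 months and 1 of 14 months, and it failed the filter in 4 of 14 fits that left out 1 sample. The log2 difference was 1.87 (SE 0.51), and 1.00 with a pseudocount of 5 in place of 1. Fitted with no filter it was 1.87 (limma adjusted p = 0.0232), a value from the same few reads that adds no independent support. The difference between tissues was not tested. Glul stood 0.44 higher at 20 months (SE 0.21, limma adjusted p = 0.162). Aldh1l1 (0.54, SE 0.42), Slc1a2 (0.36, SE 0.27), Gja1 (0.06, SE 0.22) and Aqp4 (-0.18, SE 0.45) were not called.

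**Figure D5:**
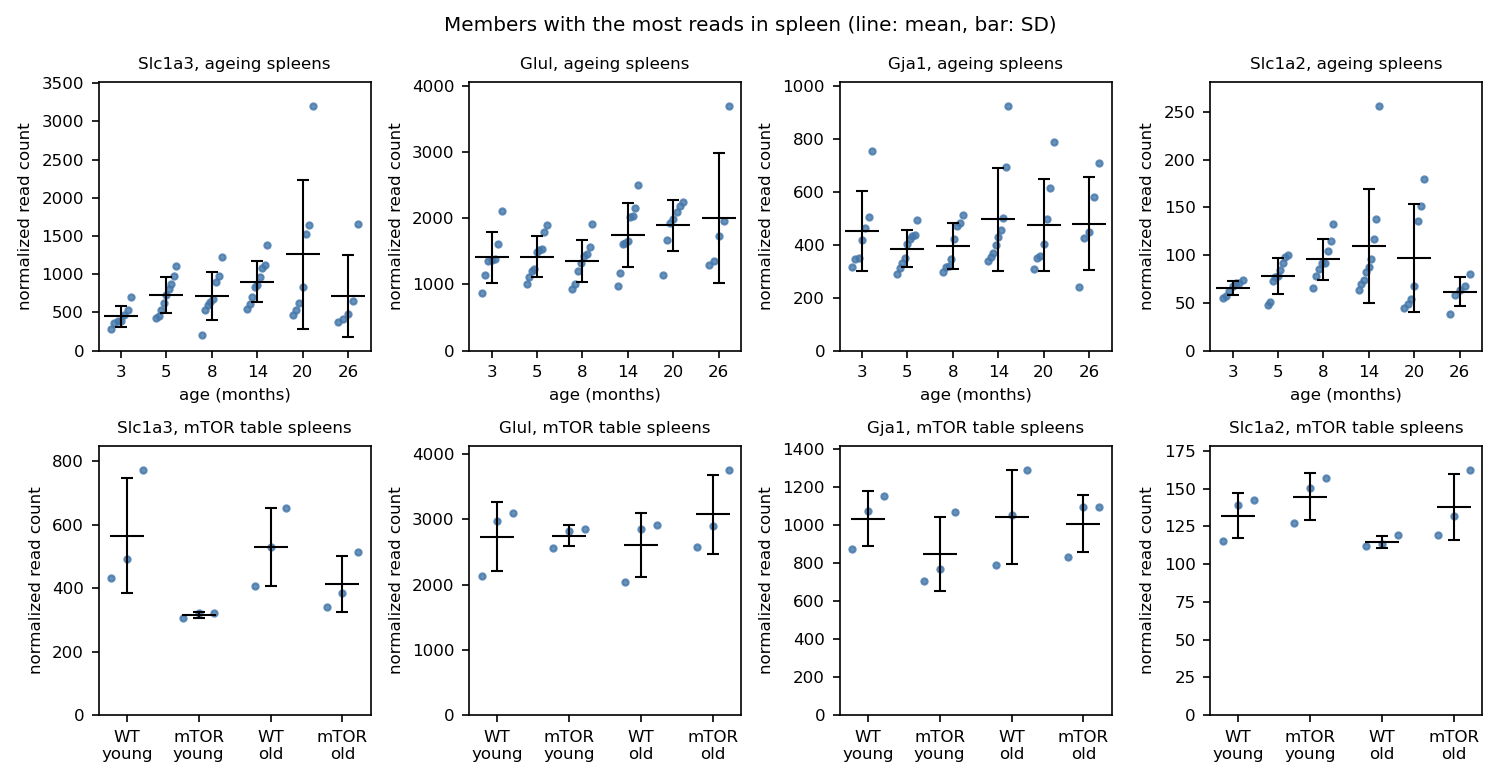
Normalized read counts of Slc1a3, Glul, Gja1 and Slc1a2 in the 45 ageing spleens by age in months (top) and in the 12 spleens of the mTOR table by genotype and age (bottom), with 1 point per sample, the mean as a line and the SD as a bar. Slc1a3 reaches 3202 in 1 spleen of 20 months. It runs from 305 to 322 in the 3 young mTOR spleens and from 432 to 771 in the 3 young WT spleens.

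In the mTOR and WT spleens 5 members passed the filter, and limma called 1 of the 5 for mTOR against WT averaged over young and old, where 7.93% of all 15512 genes were called (3.2% higher and 4.73% lower). Slc1a3 stood at 432, 491 and 771 in young WT and at 305, 321 and 322 in young mTOR spleens. These 3 against 3 values did not overlap, and how many of all genes separate in this way was not counted. In old WT spleens it stood at 405, 530 and 653, and in old mTOR spleens at 341, 384 and 512, which overlapped. It fell by 0.57 on the log2 scale (SE 0.16, limma adjusted p = 0.0439), or to 0.673-fold. The call was lost without any 1 of 8 of the 12 samples (WT young 1, WT old 1 and 3, mTOR young 1, 2 and 3, mTOR old 2 and 3), with limma adjusted p from 0.0295 to 0.102 over the 12, and with no filter on low values (limma adjusted p = 0.0563). The old and young differences differed by 0.44 (SE 0.32, limma adjusted p = 0.798). Glul (0.13, SE 0.13), Slc1a2 (0.19, SE 0.12), Gja1 (-0.17, SE 0.14) and Aldh1l1 (-0.10, SE 0.15) were not called, and Etnppl, Dio2 and Aqp4 had 0 to 10 reads per library.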

How the data were processed

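Per the labels' protocols, frozen tissue was extracted with TRI-Reagent, RNA was cleaned with a Monarch kit, and TruSeq libraries were made. Tools listed in the submitters' processing notes are HISAT2 2.1.0, DESeq2, R 3.5.1, bcl2fastq 2.20, SAMtools and cutadapt, with build GRCm38. The annotation and the tool that counted reads are not given in the sources used here. The deposited values are a normalized signal, in which the authors scaled the reads of each gene by a size factor of the library. Whole reads were recovered for 100% of values, to within 0.01 of a read.

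limma 3.58.1 (R 4.3.3) with a mean-variance trend was fitted to log2 of the value plus 1, over genes with a value of at least 10 in at least 5 libraries (3 in the mTOR table). Tests were 2-sided, p-values were adjusted by Benjamini-Hochberg across every gene tested, and an adjusted p under 0.05 is called. Log2 differences are on this scale and understate changes of low genes. The trend, the midlife and the late step used brains of 5, 8, 14 and 26 months, and the other contrasts all groups of a table. The recovered reads were tested with edgeR 4.0.16 and with DESeq2 1.42.0. The titles give each mouse a number, shared by its brain and spleen in the ageing tables. Litters and cages are not given, and p-values measure only the spread between these samples. For each pair of libraries, the variance between them over genes with 2 to 20 reads in sum was divided by that expected from read sampling. The ratios were 0.415 and 0.544 for the 2 averaged pairs and at least 1.20 for all others. The fits were also run on simulated data, whose outcome is not given here and is not used for any result.

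Named genes are the 8 members, the 3 genes most correlated with each within age (mean of at least 50, without predicted genes and pseudogenes), and the 2 genes of smallest p in the trend per pathway and astrocyte list, or 3 where a gene was called. Some choices were made after the values were seen. They are Aldh1l2 at 26 against 14 and against 3 months, the erythrocyte, neuron, oligodendrocyte and other list sums set beside Slc1a3 in spleen, and C1qa and C1qb. The lists with no slope above 0 in the brain trend were also named in this way. The exon lengths and the correlations of Glul and Slc1a2 with cerebellum and astrocyte identity genes were also such choices. Members and lists were chosen with earlier results of these data known. Exon lengths and positions are from GENCODE M21, promoters from RefSeq. Figures used matplotlib. The alternatives were a pseudocount of 5, no filter, log2 of age in the trend, edgeR, DESeq2, TMM scaling, leaving out libraries under 5000000 reads, all libraries without averaging, fitting the 2 groups alone, and leaving out each sample.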

Additional observations from a re-analysis of the deposited data

Results flagged for a closer look

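In 12 of 90 groups of 4 to 9 samples, 3 of 48 in brain and 9 of 42 in spleen, 1 sample stood apart from the others by Dixon's criterion, which chance alone reaches in about 1 in 20 groups. In brain, Aldh1l1 was 425 in replicate 6 at 14 months (others 194 to 295), a sample that also had the highest summed astrocyte identity level of 43 (26538) and the lowest glutamate and glutamine cycle sum (31712). Etnppl was 581 in replicate 2 at 8 months (others 326 to 434), and Glul was 20787 in replicate 5 at 8 months (others 14022 to 15724).

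In spleen, Slc1a3 was 3202 in replicate 2 at 20 months and 1652 in replicate 3 at 26 months, a library of 4650017 reads. Aqp4 was 59.3 and Slc1a2 256 in replicate 9 at 14 months. That spleen also had the highest summed neuron level of 45 (3124, median of its age 923) and the highest oligodendrocyte level (4306, median 1661), and the part of these in its Aqp4 and Slc1a2 values was not tested. Replicate 1 at 26 months had an Aldh1l1 value of 83.5 and a Glul value of 3694. Gja1 was 754 in replicate 5 at 3 months. Aqp4 was 10.9 in replicate 7 at 3 months (13 reads) and Dio2 was 13.5 in replicate 3 at 14 months (12 reads).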

How the results depend on the processing

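Of the 5 results in which a member was called, the call was lost in 16 of 64 fits that left out 1 sample and in 3 of 33 under other settings. These totals leave out the fits in which Dio2 in spleen failed the filter and gave no value. Over all members, most of them uncalled, 622 of 629 values under other settings and 1306 of 1326 with 1 sample left out kept their direction and side of the threshold. Uncalled effects smaller than their SE were given no direction. Slc1a2 in spleen at 20 against 3 months turned from 0.36 to -0.0599 without libraries under 5000000 reads, which leaves fewer samples. Etnppl at 20 against 14 months became called by edgeR, by DESeq2, without shallow libraries, and without 4 of 16 single samples, all with the 20-month animals that chose it.

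Counts of called genes moved more. The trend (61 genes) gave 130 with DESeq2 and 32 without libraries under 5000000 reads. The count at 20 against 3 months (27) was 41 with edgeR and 82 with DESeq2. At 26 against 14 months (25) it was 16 with no filter, 42 with edgeR, 55 with DESeq2, 16 with TMM, 7 without shallow libraries and 14 for the 2 groups alone. At 26 against 3 months (103) it was 169 with DESeq2 and 48 for the groups alone. At 20 against 14 months (1) it was 2 with no filter, 2 with edgeR, 3 with DESeq2 and 2 without shallow libraries. At 26 against 20 months (0) it was 1 with no filter, 1 with edgeR and 4 with DESeq2. The genes called in the lists over the trend (3) were 5 with edgeR and 5 with DESeq2, alternatives chosen after seeing the data, as were those for Aldh1l2. In spleen at 20 against 3 months (1733) it was 683 without shallow libraries and 882 for the groups alone. At 26 against 3 months in spleen (60) it was 25 with no filter, 707 with edgeR, 896 with DESeq2, 1492 without shallow libraries and 0 for the groups alone. DESeq2 gave 1897 for mTOR against WT (1230). The causes were not tested.

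Leaving out 1 sample gave 28 to 68 genes for the trend, 7 to 22 at 26 against 14 months, 18 to 43 at 20 against 3, 67 to 116 at 26 against 3, 1 to 4 at 20 against 14, and 0 to 0 at 14 against 5 and 8, 26 against 20 and 5 against 3 months. It gave 1004 to 2738 and 0 to 1789 in spleen at 20 and 26 against 3 months, and 726 to 1308 for mTOR. Dio2 in spleen failed the filter, and gave no value, without shallow libraries, for the 2 groups alone and in 4 of 14 fits with 1 sample left out. No paired analysis was possible because the groups compared hold different mice. The numbers in the titles tie a brain to a spleen, which were not compared, and no numbers between ages or genotypes. Low reads limit Dio2, Aqp4 and Etnppl in spleen.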
